A study of Mus musculus with 6 samples.

Results

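The end states that mouse epiblast-like cells reached with PRDM14 were compared between a line labelled *Tet1*/*Tet2* knockdown (KD) and a scramble control line. The comparison rests on 2 of the 6 arrays of the series, 1 array for each line, and was read across the 17097 genes that have a probe set with a single gene symbol. Its arrays are picked by their labels, and no measured value enters that rule. With 1 array a side there is no replicate, so no difference below has an error or a p-value. All cells were E14tg2a mouse embryonic stem cells (ESCs) that carry a doxycycline-inducible FLAG-*Prdm14* transgene on a piggyBac vector, the scramble and KD lines having been made from them by lentiviral short hairpin RNAs (shRNAs) and drug selection. The EpiLCs, epiblast-like cells, were induced for 2 days with 20 ng/mL activin A and 12 ng/mL bFGF on fibronectin. They were then replated with doxycycline, in a different medium, to give EpiLCs + PRDM14. The other arrays are ESCs, for which the labels give no shRNA, EpiLCs (d2) and EpiLCs (d4) of the scramble line, and EpiLCs (d2) of the KD line. The lines are separate selected populations, so what differs between them by line and what differs by hairpin cannot be told apart. The KD line has no array without PRDM14 after day 2. Where the difference between the lines changes from day 2 to PRDM14, the parts of PRDM14, later time and medium cannot be told apart.

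PRDM14 is a PR domain protein of ESCs and primordial germ cells that represses FGF signalling and de novo DNA methylation genes and holds mouse ESCs in the naive state. TET enzymes oxidise 5-methylcytosine, a first step by which methyl groups are removed from CG sites. Naive pluripotency is the state of the preimplantation epiblast and of ESCs, and EpiLCs stand near the primed epiblast that follows implantation. The comparison asks whether EpiLCs of a TET knockdown line, treated with PRDM14, end in the same expression state as EpiLCs of a control line.

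The hairpins define the lines, so the strand of each target that the hairpin carries is shown here, 5′ to 3′, from the study's oligonucleotide list. The *Tet1* target and its scramble partner are 21 bases long and have the same base counts, while the *Tet2* target and its partner are 19 bases long and do not.
Tet1: gcagctagctatagagtatag
Scramble (Tet1): gcgaggctataagtcgtaata
Tet2: actactaactccaccctaa
Scramble (Tet2): cgtagaatatgtacctggt

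Levels are log2 signals after each array's median over all non-control probe sets was subtracted, so 0 is the middle probe set of an array, and the brightest probe set of a gene stands for it. *Tet2*, a target of the knockdown, was at 3.64 in ESCs, 3.25 in scramble EpiLCs (d2), 3.08 in scramble EpiLCs (d4) and 3.23 in scramble EpiLCs + PRDM14. In the arrays labelled KD it was at 3.43 at day 2 and at 2.69 with PRDM14. It was thus 0.17 higher at day 2 and 0.54 lower with PRDM14 (1.45-fold) in the KD-labelled array, so the label is not borne out by the *Tet2* probe set at day 2. A second, dimmer *Tet2* probe set differed by 0.21 at day 2 and by -0.17 with PRDM14. *Tet1* was not analysed here. *Prdm14* itself was at 1.67 in ESCs, -0.34 in scramble EpiLCs + PRDM14 and -0.37 in KD-labelled EpiLCs + PRDM14, no higher than at day 2 (-0.24 and -0.22), so its probe set does not show the transgene in either line. Where that probe set lies relative to the transgene was not tested. *Tet3*, the remaining TET enzyme gene, was 0.69 higher in the KD-labelled array with PRDM14 and 0.70 higher at day 2.

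The KD-labelled arrays stand apart from the other 4 in one respect. Their deposited medians were both 5.07, where the others lay between 5.28 and 5.29. Subtracting the median removes that shift, but it leaves any offset that is particular to a probe set. Among the genes that were at least 1.5-fold higher in the KD-labelled array with PRDM14, 263 of 612 (43.0%) had levels within 0.3 of each other in the 4 arrays of the higher median, within 0.3 of each other in the KD-labelled arrays, and a step up between. Among the lower genes, 246 of 578 (42.6%) had the same flat shape with a step down. The collagen gene *Col6a1*, for one, was at -0.70, -0.68, -0.64 and -0.85 in ESCs and the scramble arrays and at 0.11 and 0.06 in the KD-labelled arrays. For such genes the line, its hairpins and a separate normalization run cannot be told apart. The difference at day 2 shares no array with the PRDM14 pair and is therefore given beside the difference with PRDM14 for most genes and lists described. It is always KD-labelled minus scramble, on the log2 scale.

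Over all genes the end states differed at more genes than any 2 states of the scramble line did. Pearson's r between the PRDM14 arrays was 0.985 with 1190 genes past 1.5-fold, so 93.0% of genes lay within it. ESCs and scramble EpiLCs (d2) had an r of 0.986 with 853 genes past 1.5-fold, and the scramble line at day 2 and with PRDM14 0.988 with 792. Scramble EpiLCs (d4) had 563 genes past 1.5-fold against day 2, 689 against PRDM14 and 1293 against ESCs. The KD-labelled line at day 2 and with PRDM14 had 0.988 with 796. More genes thus differed between the lines with PRDM14 than between ESCs and scramble EpiLCs (d2), and the flat genes above are among them. The median difference, KD-labelled minus scramble, was 0.01 on the log2 scale with an SD over genes of 0.32. At least 1.5-fold higher in the KD-labelled array were 612 genes (3.58%), and 578 (3.38%) were lower. At day 2 the counts were 564 higher (3.30%) and 385 lower (2.25%). Past 2-fold with PRDM14 were 118 higher and 75 lower genes. Below, "higher" and "lower" in counts mean past 1.5-fold, and these percentages are the background for each list.

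**Figure D1:**
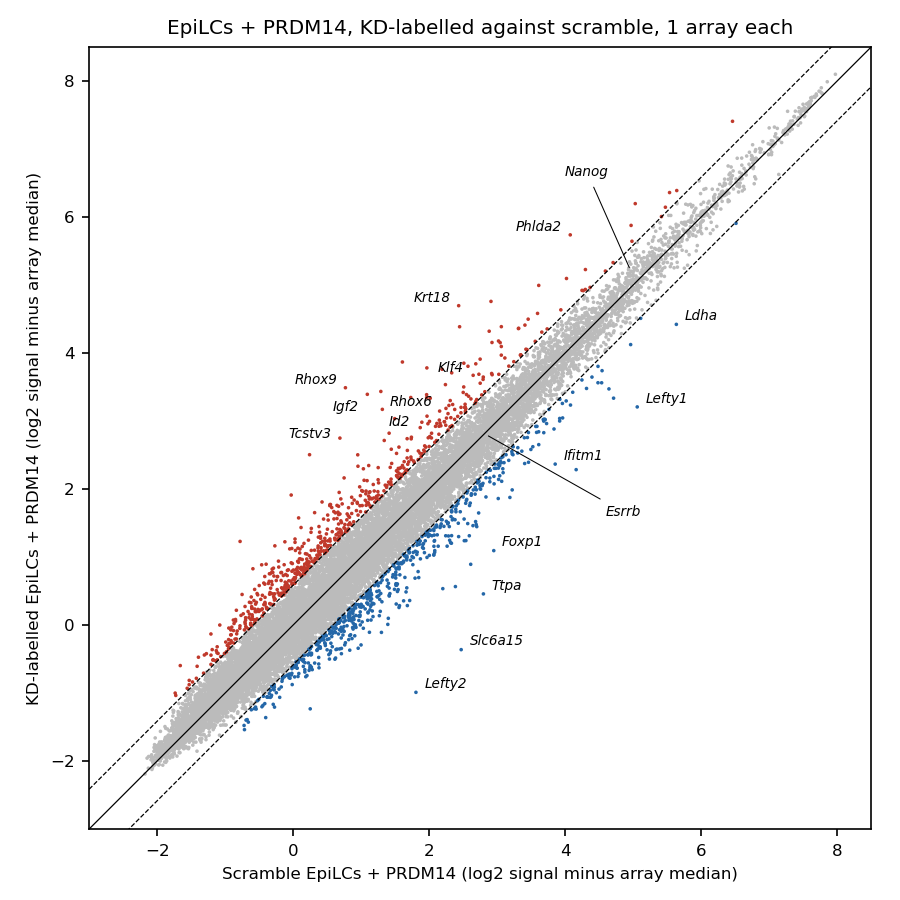
Levels of 17097 genes (1 point a gene, log2 signal minus the array median) in scramble EpiLCs + PRDM14 on the x axis and in KD-labelled EpiLCs + PRDM14 on the y axis, 1 array each. The solid line marks equal levels and the dashed lines 1.5-fold; 612 genes lie above (red) and 578 below (blue), while *Nanog* and *Esrrb* lie near the diagonal.

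Naive pluripotency genes differed both ways in the end states. Of 27 measured naive genes, 4 (14.8%) were higher and 3 (11.1%) lower in the KD-labelled array with PRDM14, 20 were within 1.5-fold, and the median difference was -0.08, which became -0.37 with the day 2 difference subtracted. At day 2 the KD-labelled array had been ahead, with 10 higher, none lower and a median difference of 0.41, against 0.03 over all genes at that time. The median level of the list was 3.45 in ESCs, 1.64 at day 2 and 2.70 with PRDM14 in the scramble line, and 2.03 at day 2 and 2.79 with PRDM14 in the KD-labelled line. *Nanog*, the homeobox factor that stabilises self-renewal, was at 4.97 in scramble EpiLCs + PRDM14 and 5.20 in the KD-labelled ones, near its level in ESCs (5.04), although at day 2 it was at 2.63 and 3.70. *Esrrb*, an orphan nuclear receptor that sustains naive cells, ended at 2.82 and 2.81 (3.24 in ESCs) after 1.64 and 2.03 at day 2. *Nr5a2*, the nuclear receptor also known as LRH-1, ended at 2.70 and 2.63 after 1.21 and 2.13 at day 2. *Nanog* and *Nr5a2* were past 1.5-fold apart at day 2 and *Esrrb* was not, and all 3 were within 1.5-fold with PRDM14.

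Other naive genes ended below the scramble level in the KD-labelled array after being above it at day 2. *Tcl1*, an AKT coactivator, was at 0.60 and 1.82 at day 2 and at 3.20 and 2.70 with PRDM14, a difference of -0.50. *Nr0b1*, which encodes the nuclear receptor DAX1, was at 1.06 and 2.45 at day 2 and at 2.96 and 2.52 with PRDM14. *Zfp42*, the ESC marker REX1, was at 5.50 and 6.05 at day 2 and ended at 6.80 and 6.56. *Klf2*, a Krüppel-like factor of the naive network, was at 3.05 and 3.15 at day 2 and ended at 4.35 and 3.91. None of these differences with PRDM14 passed 1.5-fold, and at day 2 those of *Tcl1* and *Nr0b1* did.

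The naive genes past 1.5-fold went both ways. *Klf4*, the Krüppel-like factor downstream of LIF and STAT3, was at 3.93 in ESCs, 1.97 in scramble EpiLCs + PRDM14 and 3.78 in the KD-labelled ones, so that the KD-labelled array came near the ESC level (3.52-fold over scramble, with a log2 difference of 1.06 at day 2). Its other probe set was 1.09 higher. *Tbx3*, a T-box factor of the LIF pathway, was at 2.58 and 3.36 (0.57 apart at day 2). *Fbxo15*, an F-box gene of ESCs, was at 5.54 and 6.36, and it was also higher at day 2 (0.96). *Aqp3*, a water and glycerol channel gene, differed by 0.62, against 0.34 at day 2. In the other direction, *Jam2*, a junctional adhesion molecule gene, was at 3.45 in ESCs, 2.69 in scramble EpiLCs + PRDM14 and 1.48 in the KD-labelled ones. Of its 5 probe sets 3 were lower and the others differed by -0.56 and 0.40. *Eras*, an ESC-specific RAS, was at 4.08 and 3.23 (0.41 at day 2), and *Gbx2*, a homeobox factor downstream of STAT3, at 0.36 and -0.35. *Jam2*, *Eras* and *Gbx2* were above the scramble level at day 2, *Jam2* by 0.74 and *Gbx2* by 0.73. Core pluripotency genes differed little, with 0 of 17 higher, 1 lower and a median of -0.11: *Pou5f1* (OCT4) was at 5.82 and 5.45 and *Sox2* at 6.18 and 6.05.

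**Figure D2:**
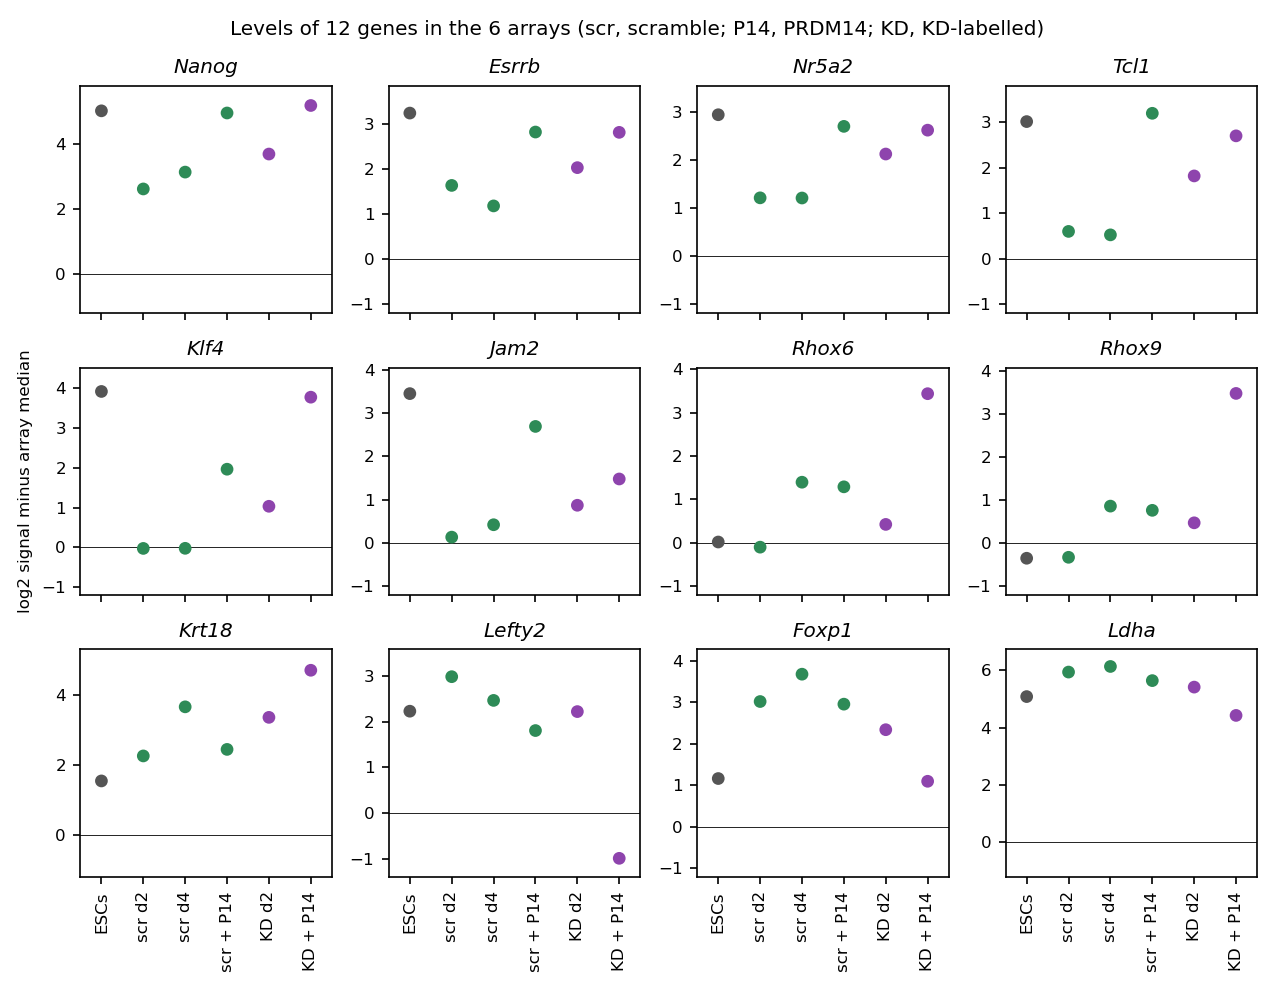
Levels of 12 genes (log2 signal minus the array median, y axis) in the 6 arrays (x axis), 1 point an array, with ESCs in grey, scramble EpiLCs in green and KD-labelled EpiLCs in purple. *Nanog*, *Esrrb* and *Nr5a2* end alike with PRDM14, *Klf4*, *Rhox6*, *Rhox9* and *Krt18* end higher in the KD-labelled array, and *Jam2*, *Lefty2*, *Foxp1* and *Ldha* end lower.

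*Nanog* and *Tcl1* were unequal at day 2 and ended within 1.5-fold, whereas the keratin pair *Krt8* and *Krt18* described further down was high in the KD-labelled line at both times. Their promoters, the 250 bases before the start from RefSeq (GRCm38.p6), are shown with CG, the site of cytosine methylation, in capitals.
Nanog, chr6:122707239-122707488, + strand: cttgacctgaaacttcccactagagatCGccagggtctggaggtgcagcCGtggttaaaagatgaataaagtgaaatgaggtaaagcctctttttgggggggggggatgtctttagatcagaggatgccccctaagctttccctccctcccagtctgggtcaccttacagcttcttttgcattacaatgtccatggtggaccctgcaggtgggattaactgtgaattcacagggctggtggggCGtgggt
Tcl1, chr12:105222738-105222987, - strand: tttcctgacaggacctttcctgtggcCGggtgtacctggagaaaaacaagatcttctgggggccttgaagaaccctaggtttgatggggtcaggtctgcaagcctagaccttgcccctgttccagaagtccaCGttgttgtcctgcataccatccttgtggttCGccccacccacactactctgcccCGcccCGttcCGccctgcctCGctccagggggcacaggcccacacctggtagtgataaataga
Krt8, chr15:102004343-102004592, - strand: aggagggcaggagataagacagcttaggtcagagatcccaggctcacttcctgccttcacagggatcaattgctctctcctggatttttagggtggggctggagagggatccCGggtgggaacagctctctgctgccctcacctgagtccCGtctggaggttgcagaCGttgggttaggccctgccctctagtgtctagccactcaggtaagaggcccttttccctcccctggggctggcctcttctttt
Krt18, chr15:102027966-102028215, + strand: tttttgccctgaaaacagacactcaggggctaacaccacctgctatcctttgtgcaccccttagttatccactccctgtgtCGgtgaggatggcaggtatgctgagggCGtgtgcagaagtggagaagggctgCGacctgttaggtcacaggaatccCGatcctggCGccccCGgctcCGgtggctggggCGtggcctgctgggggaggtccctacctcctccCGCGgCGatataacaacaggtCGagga
*Nanog* has 3 CG in this window (the first of its 2 promoters), *Tcl1* 7, *Krt8* 3 and *Krt18* 12. Among 32851 RefSeq promoters, 37.8% have at most 3 CG in such a window, 57.0% at most 7 and 68.5% at most 12. Within each pair the CG counts differ, and methylation at these sites was not analysed here.

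Genes of the primed epiblast were lower on balance in the KD-labelled array. Of 27 measured primed genes 8 were lower and 2 higher, with a median difference of -0.28; at day 2 7 were lower and 1 higher, with a median of -0.29. The list's median level was 1.09 in ESCs, 2.31 and 1.86 at day 2 in the scramble and KD-labelled lines, and 1.43 and 0.87 with PRDM14. *Fgf5*, the FGF ligand that defines EpiLCs, was at 0.09 in ESCs, 1.02 and 1.32 at day 2, and 0.08 and 0.41 with PRDM14. *Foxp1*, a forkhead factor, was at 1.16 in ESCs, 3.01 and 2.34 at day 2, and 2.95 and 1.09 with PRDM14, so the KD-labelled array came down to the ESC level and the scramble array did not. Of its 7 probe sets 6 were lower. *Zic2*, a zinc-finger factor of the epiblast and neural plate, was at 2.33 and 1.20 with PRDM14 (-1.25 at day 2). *Otx2*, which drives the exit from naive pluripotency, and *Sfrp2*, a secreted WNT antagonist, were 0.91 and 0.94 lower with PRDM14, against 0.18 and 0.29 at day 2. Over the list 19 genes were below 0 with PRDM14 and 8 above. Among the latter, within 1.5-fold, were *Pou3f1* (0.51), *Dnmt3b* (0.50) and *Dusp6* (0.48). The 2 higher primed genes were *Gja1*, the gap junction gene connexin 43, at 3.41 and 4.41 with PRDM14 after 5.76 and 5.21 at day 2, and *Car4*, a carbonic anhydrase gene, at 0.94 and 1.81 (0.63 at day 2).

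The primed list shares its lowest member with the nodal pathway. *Lefty2*, a secreted nodal antagonist that is itself a nodal target, was at 2.23 in ESCs, 2.98 and 2.22 at day 2, and 1.81 and -0.99 with PRDM14, a difference of -2.80 (6.94-fold lower). *Lefty1*, its neighbour on chromosome 1 with the same role, was at 5.84 and 4.98 at day 2 and at 5.06 and 3.21 with PRDM14 (3.61-fold lower). The ligand gene *Nodal* was at 4.11 and 4.17 at day 2 and at 3.92 and 3.04 with PRDM14, and its second probe set was lower too. By the brightest *Nodal* probe set the lines were alike at day 2 and 0.88 apart with PRDM14. By the second they already differed by -0.45 at day 2, and by -0.74 with PRDM14. Of 16 measured activin and nodal genes, these 3 were lower and none higher. At day 2 *Lefty1* and *Lefty2* were lower. *Skil*, a feedback inhibitor of SMADs, was at 3.90 and 3.32 (-0.10 at day 2).

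Rhox homeobox genes, an X-linked cluster expressed in germ cells and placenta, had the highest median of the lists, 1.45 over 4 genes, 3 of them higher. *Rhox9* was at -0.35 in ESCs, -0.32 and 0.48 at day 2, and 0.77 and 3.49 with PRDM14, a 6.59-fold difference. *Rhox6* was at 0.02 in ESCs, -0.10 and 0.42 at day 2, and 1.29 and 3.44 with PRDM14. In scramble EpiLCs (d4) they were at 0.87 and 1.40, so the KD-labelled array with PRDM14 was above every other array for both. *Rhox5*, the founding member, was at 5.64 and 6.39, and *Rhox13*, a germ cell member, at 2.83 and 2.92. *Rhox6* and *Rhox9* are close paralogs, and their probe sets may share signal. X-linked genes as a whole did not follow them, with 31 higher and 26 lower of 596.

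Early germ cell genes otherwise differed little. Of 15 measured, 4 were higher, 3 of them Rhox genes, and 1 was lower, with a median of 0.04. *Dppa3* (stella), a maternal factor that protects methylation marks, was at 1.98 and 1.87 at day 2 and at 3.89 and 3.94 with PRDM14, equal in the lines and above ESCs (1.21). *Tfap2c*, the AP2γ factor of primordial germ cells and trophoblast, was at 2.03 and 2.75 (-0.20 at day 2). Its other probe set was at 2.05 and 2.77 but differed by 0.45 at day 2. *Ifitm1*, an interferon-induced membrane protein gene of early germ cells, was at 3.85 and 2.37 (-0.52 at day 2). *Prdm1* (BLIMP1) was at -0.40 and -0.59, about where it was in ESCs (-0.70). Of 30 meiosis and piRNA genes 1 was higher, the RNA helicase gene *Ddx4* (1.87 and 2.90, and 0.33 apart at day 2), and 2 were lower, the meiotic chromosome axis genes *Sycp3* (2.38 and 1.55, and -0.66 at day 2) and *Hormad2* (-0.20 and -1.06, and -0.42 at day 2).

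Genes of the 2-cell-like state, a rare ESC state that expresses transcripts of the cleavage embryo, were higher in the KD-labelled line at both times. Of 11 measured, 7 were higher with PRDM14 and none lower, with a median of 0.91; at day 2 9 were higher and none lower, with a median of 1.41. The list's median level was -0.23 in ESCs, 0.26 and 1.59 at day 2, and 1.92 and 3.67 with PRDM14. *Zfp352*, a zinc-finger gene of the cleavage embryo, was at 0.00 and 0.80 at day 2 and at 1.49 and 3.04 with PRDM14. *Tcstv3* was at 0.69 and 2.75 with PRDM14 and *Tcstv1* at 2.65 and 3.67, these being members of a duplicated 2-cell gene family, with differences of 1.41 and 1.78 at day 2. Many members of this list belong to such near-identical families, so the members are not independent measurements. From day 2 to PRDM14 the gap between the lines widened for *Zfp352*, *Tcstv3* and *AF067063* (1.27 to 2.26) and narrowed for *Tcstv1*. It narrowed for most other members too, such as *Zscan4a* (1.86 to 0.56) and *Calcoco2* (2.06 to 0.50). Over the list the median of the members' differences with the day 2 difference subtracted was -0.31, although the median levels lay farther apart with PRDM14 than at day 2.

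Keratin genes and some placental genes were higher in the KD-labelled array. Of 17 trophoblast genes 6 were higher and none lower, with a median of 0.38, against 2 higher at day 2. The trophoblast factor genes *Cdx2* (0.04), *Eomes* (0.13), *Elf5* (-0.04) and *Tfap2a* (-0.04) were within 1.5-fold. *Krt18* and *Krt8*, the partner keratins of simple epithelia, led them: *Krt18* was at 1.53 in ESCs, 2.25 and 3.35 at day 2, and 2.43 and 4.70 with PRDM14, and *Krt8* was at 2.48, then 2.21 and 3.64, then 2.91 and 4.76. *Krt7*, a trophoblast and ductal keratin, was at 0.27 and 1.42 (0.44 at day 2), and *Krt19*, another simple keratin that is on the junction list, at 0.12 and 1.43 (-0.04 at day 2). *Plac1*, a placental surface protein gene, was at 2.15 and 3.15 (-0.26 at day 2), and *Ascl2*, an imprinted factor of trophoblast, at 0.40 and 1.28 with all 3 probe sets higher (0.16 at day 2). In scramble EpiLCs (d4), without PRDM14, *Krt8* (4.30), *Krt18* (3.65), *Krt19* (1.31) and *Ascl2* (1.31) were also above the scramble array with PRDM14.

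Of 23 epithelial junction and mesenchymal genes 8 were higher and 1 lower, with a median of 0.23, against 5 and 1 at day 2. Among the 8 are *Krt8*, *Krt18* and *Krt19*. The claudin genes *Cldn3*, *Cldn4* and *Cldn7*, which build tight junctions, were 1.00, 1.14 and 1.09 higher, after 0.88, 0.12 and -0.30 at day 2. *Vim* (vimentin) and *Zeb1*, a repressor of epithelial genes, are mesenchymal and were 1.38 and 1.22 higher, after 0.50 and 1.03 at day 2. *Esrp1*, an epithelial splicing regulator, was 1.16 lower (-0.46 at day 2). The higher genes were thus 6 epithelial and 2 mesenchymal ones, and the lower one is epithelial.

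Among lists that mark other cell types, endoderm and the trophoblast list above had the most calls, 6 each. None of 19 primitive streak and mesoderm genes passed 1.5-fold (median 0.17). Of 21 endoderm genes 6 (28.6%) were higher and none lower (median 0.17), and at day 2 4 were higher and none lower. Among them were the basement membrane collagens *Col4a1* (1.18 and 2.07, and 1.04 apart at day 2) and *Col4a2* (0.07 and 0.85, and 0.59 apart at day 2). The endoderm factor genes *Gata4* (a difference of -0.04), *Gata6* (0.24), *Sox17* (-0.05), *Foxa2* (-0.20) and *Hnf4a* (0.01) were within 1.5-fold. Of the 21 endoderm genes 12 were above 0 and 9 below. Of 14 neural ectoderm genes 1 was lower, the neurofilament gene *Nefl* (1.28 and 0.20, and 0.75 higher at day 2), and of 34 Hox genes 1 was higher. Of 17 fibroblast genes 2 were higher and 1 lower. The Hox call (*Hoxc5*), the lower fibroblast call (*Col3a1*), the higher one *Col6a1* and the endoderm call *Apoa1* have the flat shape. Other probe sets of *Hoxc5*, *Col3a1* and *Apoa1* went the other way (-0.49, 0.13 and -0.19). The part of other cells in any difference was not tested.

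**Figure D3:**
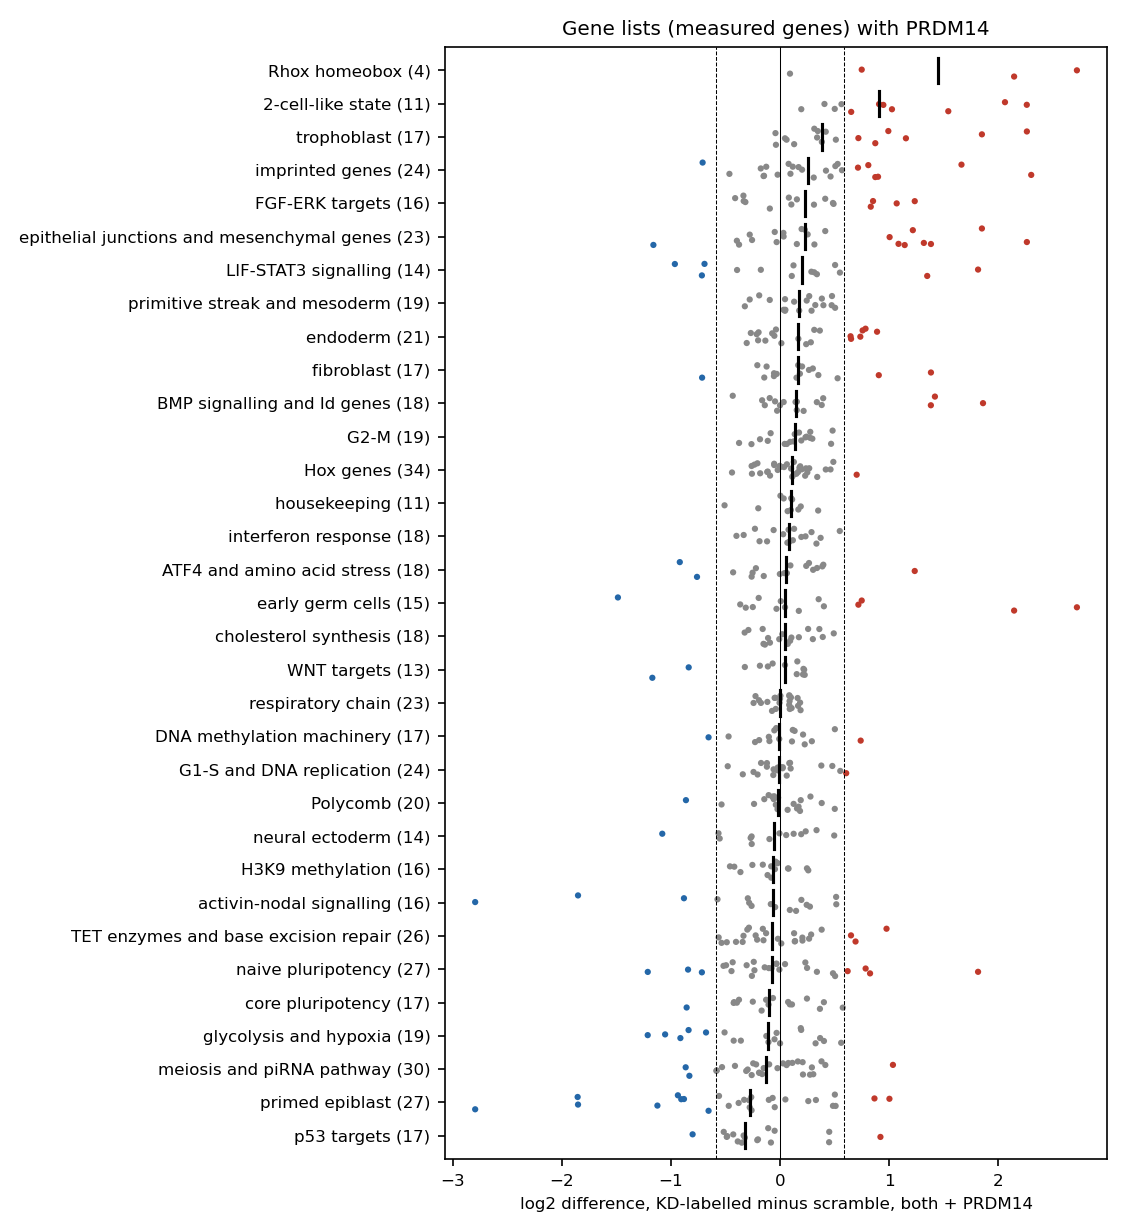
Difference of each measured member (x axis, log2, KD-labelled minus scramble, both with PRDM14, 1 array each) in each gene list (y axis, number of measured genes in parentheses), with the list's median as a black bar, 1.5-fold as dashed lines, and genes past it in red (higher) and blue (lower). Rhox genes (1.45), the 2-cell-like state (0.91) and trophoblast (0.38) have the highest medians, and p53 targets (-0.32) and the primed epiblast (-0.28) the lowest.

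Among imprinted genes, which are expressed from 1 parental allele, 6 of 24 were higher and 1 was lower, with a median of 0.25. *Igf2*, the paternally expressed growth factor gene, was at 0.62 in ESCs, 0.40 and 2.15 at day 2, and 1.09 and 3.39 with PRDM14. A dimmer probe set of it differed by 0.14. *Phlda2*, a maternally expressed restrictor of placental growth, was at 4.38 and 4.25 at day 2 and at 4.08 and 5.74 with PRDM14, and *Peg3*, a paternally expressed zinc-finger gene, at 2.35 and 3.24 (0.47 at day 2). *Phlda2* was thus apart only with PRDM14, and *Igf2* at both times. *Grb10*, an adaptor gene that dampens insulin signalling, was 0.71 lower (-0.27 at day 2).

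Some signalling targets of FGF-ERK and BMP were higher in the KD-labelled array and none lower. Of 16 FGF-ERK targets 4 were higher and none lower with PRDM14 (median 0.23), and 6 were higher at day 2. *Spry2*, a feedback inhibitor of FGF signalling, was at 3.47 and 4.30 at day 2 and at 2.57 and 3.81 with PRDM14. *Egr1*, an immediate early factor, was at 0.62 and 1.59 at day 2 and at 0.38 and 1.45 with PRDM14, while *Dusp6*, which encodes a phosphatase of ERK, was at 2.64 and 3.12. *Spry2*, *Egr1* and *Dusp6* were ahead in the KD-labelled line at both times. Of the 16 targets 11 were above 0 with PRDM14 and 5 below. *Etv4* (-0.41), *Spry4* (-0.34) and *Etv5* (-0.32) were among the latter.

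Of 18 BMP and Id genes 3 were higher and none lower (median 0.15). The ligand gene *Bmp4* was at 0.95 and 2.34 (1.14 at day 2), the inhibitory SMAD gene *Smad6* at -0.59 and 0.83 (0.49 at day 2), and *Id2*, a BMP target that blocks bHLH factors, at 1.31 and 3.17 (1.48 at day 2). The other Id genes were within 1.5-fold with PRDM14. *Id1* differed by -0.14, *Id3* by 0.38 (0.95 at day 2) and *Id4* by 0.03. Of the 18 genes 11 were above 0 and 7 below. LIF-STAT3 genes were split, with 2 higher (*Klf4* and *Bcl3*, an IκB-like coactivator gene, at -0.46 and 0.89) and 3 lower (*Gbx2*, the receptor gene *Lifr* and *Pim1*, a kinase gene, at 1.49 and 0.53) of 14. *Lifr* was at 2.38 and 3.11 at day 2 and at 3.04 and 2.34 with PRDM14, so its order turned. At day 2 4 of the list were higher and none lower. Of 13 WNT targets 2 were lower, the cyclin D1 gene *Ccnd1* (4.64 and 3.47, all 3 probe sets lower) and the feedback inhibitor gene *Nkd1* (0.97 and 0.13), the latter with the flat shape. Both were lower at day 2 as well (-0.60 and -0.65).

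Glycolysis and hypoxia genes were the metabolic list with differences, with 5 of 19 lower and none higher (median -0.11), against 3 higher and 2 lower at day 2 (median 0.04). *Ldha*, the lactate dehydrogenase gene, was at 5.08 in ESCs, 5.93 and 5.41 at day 2, and 5.64 and 4.42 with PRDM14, below every other array. *Slc16a3*, the lactate exporter MCT4, was at 0.71 and -0.34 (-0.43 at day 2). *Bnip3*, a mitophagy receptor gene induced by hypoxia, was at 3.34 and 3.81 at day 2 and at 3.50 and 2.58 with PRDM14. *Tpi1* (triosephosphate isomerase) was at 4.96 and 4.12 (-0.64 at day 2). Of the 19 genes 13 were below 0 with PRDM14 and 6 above, the hexokinase genes *Hk1* (0.56) and *Hk2* (0.40) among the latter. No gene of the respiratory chain (23), cholesterol synthesis (18) or the interferon response (18) passed 1.5-fold.

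The DNA methylation machinery was alike in the end states apart from 2 of 17 genes. *Dnmt3b*, the de novo methyltransferase gene, was at 5.05 in ESCs, 6.19 and 5.84 at day 2, and 4.09 and 4.59 with PRDM14, below the ESC level in both lines. A dimmer *Dnmt3b* probe set went the other way with PRDM14, at 2.97 and 2.78, and differed by -1.08 at day 2. *Dnmt3a*, the other de novo methyltransferase gene, was at 4.47 and 4.05 at day 2 and at 3.68 and 3.02 with PRDM14, with 2 of 5 probe sets past 1.5-fold. *Mbd2*, a reader of methylated CG, was at 1.73 and 2.47 (0.44 at day 2). Of 26 TET and base excision repair genes 3 were higher: *Tet3*, the DNA glycosylase gene *Neil1* (-0.36 and 0.61) and the stress gene *Gadd45a* (2.38 and 3.02, and -0.07 at day 2). *Tet3* and *Neil1* have the flat shape described above. None of 16 H3K9 methylation genes passed. Of 20 Polycomb genes 1 passed, *Pcgf2*, which was lower and has the flat shape.

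Cell cycle lists were almost flat, with 1 of 24 G1-S genes higher and none of 19 G2-M genes past 1.5-fold. Of 17 p53 targets 1 was lower and 1 higher, with a median of -0.32 (-0.26 at day 2). Of 18 ATF4 and amino acid stress genes 1 was higher and 2 were lower, and the lower gene *Psat1* has the flat shape. None of 11 housekeeping genes passed, and *Gapdh* was at 6.80 and 6.99.

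Outside these lists, *Slc6a15*, a neutral amino acid transporter gene, had the most negative difference: it was at 2.47 in scramble EpiLCs + PRDM14, between -0.88 and 0.11 in the other EpiLC and ESC arrays, and at -0.36 in KD-labelled EpiLCs + PRDM14 (7.13-fold lower). *Ttpa*, the α-tocopherol transfer protein gene, was at 2.80 and 0.46, and *Plac8*, a small cysteine-rich protein gene, at 4.71 and 3.34 after 1.88 and 1.83 at day 2. *Tmem47*, a junctional membrane protein gene, was at 2.04 and 1.99 at day 2 and at 2.61 and 0.89 with PRDM14. On the other side, *Irx3*, an Iroquois homeobox gene, was at -0.55 and -0.30 at day 2 and at -0.03 and 1.91 with PRDM14. *Slc6a15*, *Plac8*, *Tmem47* and *Irx3* were within 1.5-fold at day 2 and apart with PRDM14. *Rnf128*, an E3 ubiquitin ligase gene, was apart by 1.97 at day 2 and by 2.26 with PRDM14 and flat within each set of arrays by its brightest probe set. Its dimmer probe set was apart by 1.86 and 2.64 and was not flat, at 0.94 and 1.78 in the KD-labelled arrays.

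Y-linked genes stood apart at both times. *Eif2s3y*, a translation initiation factor subunit gene, was between 3.86 and 4.31 in ESCs and the scramble arrays and at 2.18 and 2.29 in the KD-labelled arrays. *Uty*, a histone demethylase family gene, was between 1.13 and 1.85 in the first set and at -0.16 and 0.29 in the second. Of 12 measured Y-linked genes 4 were lower with PRDM14 and 3 at day 2. A bulk array cannot tell fewer cells that express a gene from less RNA per cell.

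The study's own states give a wider view. Genes at least 1.5-fold higher in ESCs than in both scramble EpiLCs (d2) and (d4) were taken as ESC-high (317 genes) and the reverse as EpiLC-high (297 genes), on arrays outside the PRDM14 pair. Of the ESC-high genes 51 (16.1%) were higher in the KD-labelled array with PRDM14 and 17 (5.36%) lower, with a median difference of 0.09. Their median level was 2.67 in ESCs, 1.48 and 1.37 in scramble EpiLCs (d2) and (d4), and 1.94 and 2.08 with PRDM14 in the scramble and KD-labelled arrays. Both end states lay between the states by these medians. The sign of the difference between the lines depends on the processing: the ESC-high median was -0.19 with the day 2 difference subtracted and -0.13 without the median shift.

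EpiLC-high genes were counted the same way. Of 297, 55 (18.5%) were lower in the KD-labelled array with PRDM14 and 31 (10.4%) higher, with a median difference of -0.12, which was -0.017 with the day 2 difference subtracted. Their median level was 1.37 in ESCs, 2.54 and 2.83 in the scramble EpiLCs, and 2.26 and 2.11 with PRDM14. At day 2 the ESC-high genes counted 76 higher and 2 lower and the EpiLC-high genes 20 higher and 41 lower, but the scramble day 2 array is part of the choice there, so those counts are a description. Over all genes the correlation of PRDM14 arrays with ESCs was 0.985 for scramble and 0.975 for the KD-labelled array.

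**Figure D4:**
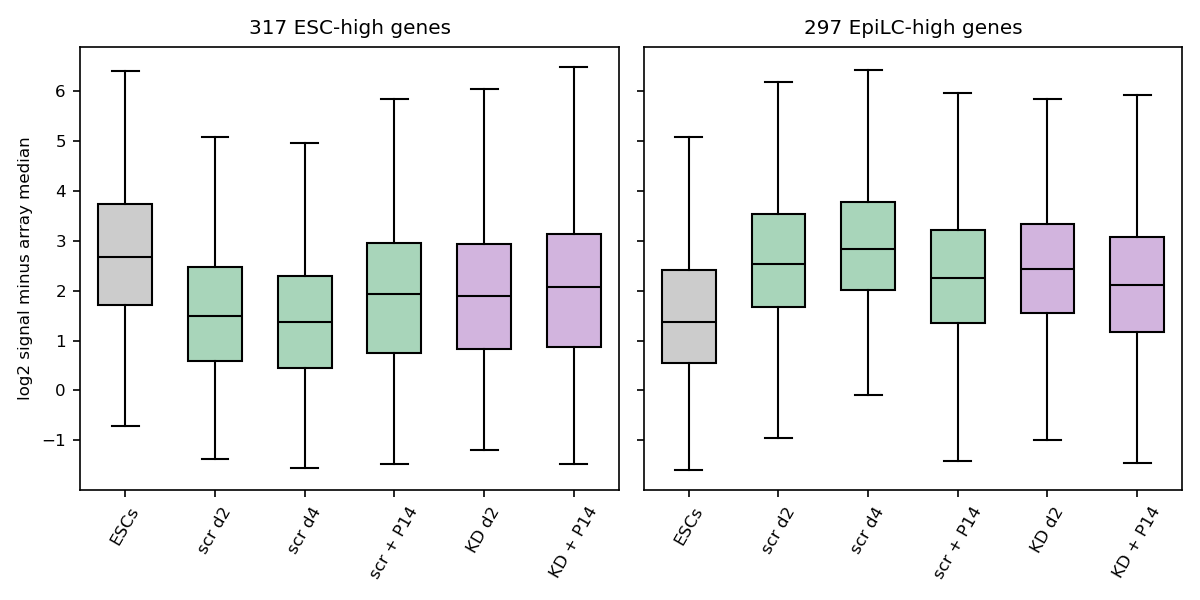
Levels of ESC-high genes (317, left) and EpiLC-high genes (297, right) in the 6 arrays (x axis; log2 signal minus the array median on the y axis). Boxes span the quartiles, lines mark medians and whiskers reach the farthest gene within 1.5 box lengths; the medians with PRDM14 are 1.94 and 2.08 on the left and 2.26 and 2.11 on the right, scramble first.

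A large share of the differences was present at day 2 too. Of the 612 genes higher with PRDM14, 306 (50.0%) were higher at day 2 as well, 304 were within 1.5-fold and 2 were lower. Of the 578 lower genes 214 (37.0%) were lower at day 2, 356 (61.6%) were within 1.5-fold and 8 were higher. Counted from day 2, 306 of 564 higher genes (54.3%) and 214 of 385 lower genes (55.6%) were called the same way with PRDM14. Across genes, which are not independent and share the array medians and any normalization run, the differences had a Pearson's r of 0.69 and a Spearman's rho of 0.67. With each gene's day 2 difference subtracted, 170 genes were higher and 385 lower.

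**Figure D5:**
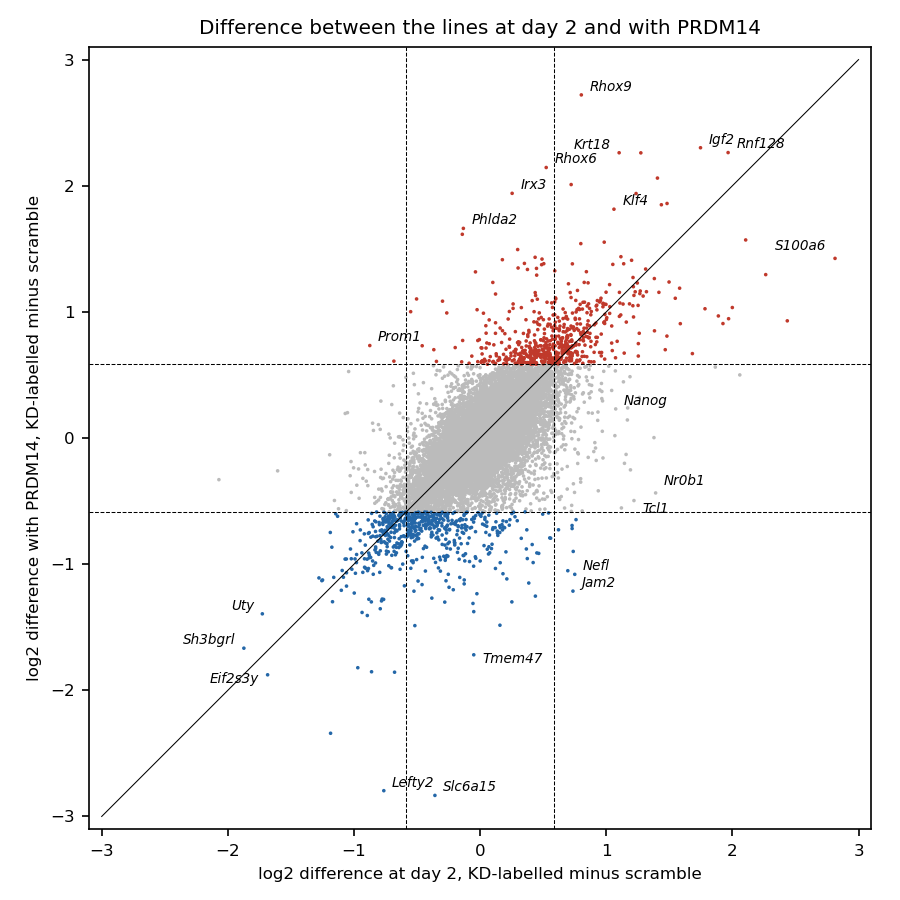
Difference of 17097 genes (log2, KD-labelled minus scramble) at day 2 on the x axis and with PRDM14 on the y axis, 1 array for each condition, with 1.5-fold as dashed lines, equal differences as a solid line, and genes higher (red) or lower (blue) with PRDM14. *Rnf128*, *Igf2* and *Eif2s3y* are apart at both times, *Phlda2*, *Irx3* and *Tmem47* only with PRDM14, and *Nanog*, *Tcl1* and *Nr0b1* only at day 2.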

How the data were processed

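Total RNA of 6 cultures was hybridized to Affymetrix mouse PM array strips. The authors deposited log2 signals from robust multi-array averaging (RMA) with default settings. For software the submitters' processing notes name the Affymetrix Expression Console; no version was found in the sources used here. Depth does not apply to arrays, and having 1 array per condition limits the precision. From 45141 probe sets 104 controls were left out, and 28898 have 1 symbol, 551 several and 15588 none in the annotation (446 of those without were higher and 406 lower). Each array's median was subtracted, a gene took its brightest probe set by mean level, and a difference of 1.5-fold (0.585 on the log2 scale), the study's threshold, was counted with Python 3.11.15 and pandas 2.3.3. The procedure was tested on simulated data. Those had a common shift of the KD-labelled arrays but no offset particular to a probe set, so the test does not bear on the flat genes. The comparison and the 34 gene lists (671 symbols, 580 measured) were chosen with earlier results of these data known. Named genes are the 15 highest and 15 lowest differences, the 4 largest per list, the genes the study followed, TET genes and the 5 largest reversals between day 2 and PRDM14, with the text leaving out some. *Aqp3*, *Otx2*, *Sfrp2*, *Grb10*, *Lifr*, *Esrp1*, *Zeb1*, *Snurf*, *B3galnt1*, *Sh3gl2*, the trophoblast factors, the claudins and the flat shape were chosen after their values were seen. So were *Etv4*, *Etv5*, *Spry4*, *Id1*, *Id3*, *Id4*, *Pou3f1*, *Hk1*, *Hk2*, *Zscan4a*, *Calcoco2* and the endoderm factors.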

Additional observations from a re-analysis of the deposited data

Results flagged for a closer look

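For 10 of the 17097 genes the lines differed past 1.5-fold in opposite directions at day 2 and with PRDM14, each on 1 array a side, and the difference between the contrasts was not tested. *Jam2* differed by 0.74 at day 2 and by -1.21 with PRDM14 (KD-labelled minus scramble, log2). *Nefl* differed by 0.75 and -1.08, *Kank3*, an ankyrin repeat gene, by 0.70 and -1.05, and *Pgap1*, a gene of GPI anchor remodelling, by 0.74 and -0.90. *Gbx2* differed by 0.73 and -0.72. *Prom1*, the surface glycoprotein gene CD133, went the other way, with -0.87 at day 2 and 0.73 with PRDM14, as did *Snurf*, an imprinted gene, with -0.68 and 0.61. *Lifr* differed by 0.73 and -0.69, *B3galnt1*, a glycosyltransferase gene, by 0.62 and -0.73, and *Sh3gl2*, the endophilin A1 gene, by 0.76 and -0.65. For *Jam2*, *Nefl*, *Kank3* and *Pgap1* not every probe set passed 1.5-fold with PRDM14 (3 of 5, 1 of 2, 1 of 3 and 1 of 2). In none of these genes did another probe set pass 1.5-fold in opposite directions at both times. The other *Jam2* probe sets lower with PRDM14 (-1.62 and -0.73) differed by -0.03 and -0.16 at day 2. Of the 10 genes 8 were higher at day 2 and lower with PRDM14. The arrays with PRDM14 also differ from those at day 2 by later time and by medium.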

How the results depend on the processing

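No paired analysis was possible because each condition has 1 array and the labels give no replicate numbers. At a 2-fold threshold 118 genes were higher and 75 lower. Without the median shift 241 were higher and 1638 lower (12.8% of calls higher, against 51.4%), the median of all genes was -0.20, and the medians of ESC-high and EpiLC-high genes were -0.13 and -0.34. With the day 2 difference subtracted 170 were higher and 385 lower (30.6% higher), and the medians were -0.19 for ESC-high, -0.017 for EpiLC-high and -0.37 for naive genes. Taking the probe set with the largest difference gave 0.18 for ESC-high and -0.22 for EpiLC-high genes, and choosing against EpiLCs (d4) only gave -0.046 for EpiLC-high genes. Quantile normalization gave 623 higher and 579 lower and moved no list. Of 169 named genes, changes of sign are listed here only for those past 1.5-fold with PRDM14. Smaller differences are left out, although that of *Nanog* (0.23, and 1.07 at day 2) changed sign too with the day 2 difference subtracted. With that subtraction these changed sign: *Col4a1* (-0.16), *Fbxo15* (-0.14), *Perp* (-0.24), *Phlda1* (-0.43), *Sh3bgrl* (0.21), *Shmt2* (0.0042), *Tcstv1* (-0.76), *Tet3* (-0.0094), *Uty* (0.33) and *Zic2* (0.12), as did the 2-cell-like list (-0.31). With the median over all probe sets of a gene *Cebpb* (-0.16), *Kank3* (0.079) and *Shmt2* (0.24) did. That subtraction removes offsets common to both KD-labelled arrays along with any lasting difference of the line.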
